A study of Mus musculus with 12 samples.

Results

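The 10 genes described here are 4 subunit genes of the transcription factor NF-kB (Nfkb1, Nfkb2, Rel and Relb), 3 genes of the IkB family that bind it (Nfkbia, Nfkbie and Nfkbiz), and 3 genes that tumour necrosis factor (TNF) signalling induces (Tnfaip3, Tnfaip2 and Birc3). They were taken by symbol from a table of 55487 genes, in which each symbol occurs 1 time, and all 10 passed the filter that left 18407 genes for testing. Lung tissue of C57BL/6NCr mice, a C57BL/6 substrain, was sampled at 4 ages, written 6M, 12M, 20M and 30M for 6 months, 12 months, 20 months and 30 months, with 3 poly-A RNA-seq libraries per age. All groups share the strain, and the labels name no treatment or allele. The labels do not state whether each library came from its own animal, and p-values therefore reflect only how much these libraries vary, which may be technical.

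NF-kB dimers are kept in the cytoplasm by IkB proteins. Signals from TNF receptors, interleukin-1 receptors and Toll-like receptors lead to IkB breakdown, after which the dimers enter the nucleus and bind kB sites. Several of the genes they switch on encode their own inhibitors or subunits. In lung, alveolar macrophages, recruited leukocytes, epithelium and endothelium all use the pathway.

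The kB consensus, a short degenerate site bound by NF-kB dimers, was searched on both strands of RefSeq promoter windows (GRCm38.p6) that run from 250 bases before to 50 bases after a transcription start. Windows were at hand for 7 members, with 10 windows in all; 8 of the 10 windows, of 6 members, held at least 1 match. Matches on different strands or at neighbouring positions can overlap and were not counted apart. Of all 32851 windows in the table, 8.46% held a match. A match describes the letters and is not evidence of binding. Matches are in capitals in 4 windows shown here because they cover the member whose mRNA was higher at 30M by test (Nfkbie), the other IkB gene set against it (Nfkbia), a subunit gene with several matches (Nfkb2, the first of its 3 starts) and a member with none and a flat profile over age (Birc3). Each window is printed from 5′ to 3′ on the gene's strand.
Nfkbie: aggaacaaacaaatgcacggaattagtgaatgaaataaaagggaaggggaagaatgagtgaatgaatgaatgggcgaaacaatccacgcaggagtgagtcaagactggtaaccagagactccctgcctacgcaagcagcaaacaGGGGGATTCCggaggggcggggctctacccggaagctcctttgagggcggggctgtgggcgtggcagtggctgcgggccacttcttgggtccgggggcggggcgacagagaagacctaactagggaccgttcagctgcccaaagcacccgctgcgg
Nfkbia: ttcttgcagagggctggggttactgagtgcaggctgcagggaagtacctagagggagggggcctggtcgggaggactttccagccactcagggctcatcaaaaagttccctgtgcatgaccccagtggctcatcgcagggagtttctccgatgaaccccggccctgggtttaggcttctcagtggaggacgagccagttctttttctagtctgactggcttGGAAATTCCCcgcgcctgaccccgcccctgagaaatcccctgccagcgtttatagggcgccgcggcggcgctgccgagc
Nfkb2: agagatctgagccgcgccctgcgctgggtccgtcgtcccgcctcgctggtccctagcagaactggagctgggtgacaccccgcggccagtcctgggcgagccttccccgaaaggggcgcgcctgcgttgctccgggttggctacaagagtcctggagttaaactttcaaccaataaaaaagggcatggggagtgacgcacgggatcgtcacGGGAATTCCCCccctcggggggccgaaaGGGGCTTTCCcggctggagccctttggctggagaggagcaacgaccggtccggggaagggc
Birc3: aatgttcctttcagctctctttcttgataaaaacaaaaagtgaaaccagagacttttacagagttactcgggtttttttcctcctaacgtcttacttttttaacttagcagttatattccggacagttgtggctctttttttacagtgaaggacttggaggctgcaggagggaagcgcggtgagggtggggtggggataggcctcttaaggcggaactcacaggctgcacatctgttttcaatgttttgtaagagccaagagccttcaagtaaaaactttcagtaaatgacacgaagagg
The Nfkbie window lies at chr17:45555450-45555749 (plus strand), and its match, GGGGGATTCC, begins 106 bases before the start. The Nfkbia window lies at chr12:55492598-55492897 (minus strand); its match reads GGGAATTTCC on the opposite strand and begins 29 bases before the start. The Nfkb2 window lies at chr19:46304487-46304786 (plus strand). It holds GGGAATTCCC, which reads the same on both strands, 39 bases before the start, with a further match on the opposite strand that overlaps it, and GGGGCTTTCC, 11 bases before it. The Birc3 window lies at chr9:7873121-7873420 (minus strand) and holds no match in these letters.

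Levels are TMM-scaled counts in each 1000000 of a library (CPM), given as mean ± SD over 3 libraries, and tests are edgeR's quasi-likelihood tests on counts with Benjamini-Hochberg adjustment over all 18407 genes. A gene is said to have risen, fallen or been called where its adjusted p was under 0.05. Library totals ran from 12152066 to 15058628 counts, and the members had between 67 and 3670 counts per library. Alveolar epithelium markers (Sftpc, Sftpb, Sftpa1, Lamp3, Ager, Hopx and Rtkn2) were abundant in every library, with summed levels of 18757 to 37061 CPM. In 3 libraries, 20M_221, 20M_222 and 30M_220, expression relative to the 6M mean was higher for GC-rich genes (Spearman rho of 0.360, 0.466 and 0.320 over 17021 genes). Library 12M_208 had 0.228, and the other 8 lay between -0.0883 and 0.0549. Library 20M_222 also carried 3091 CPM of 7 skeletal muscle markers, against 10.3 to 41.4 CPM in the other libraries. Results that rest on the 3 libraries with the GC trend are given with and without them.

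Of the 10 members, only Nfkbie was called at 30M against 6M, and it was higher. Of all genes tested, 1.96% were called in either direction, 1.93% as higher and 0.0272% as lower. The log2 fold change was above 0 for 10 of 10 members, against 50.5% of all genes, and the members' median was 0.52, against 0.0028 over all genes. Without the 3 libraries with the GC trend, Rel (-0.0068) and Birc3 (-0.097) lay below 0. The rest lay above 0: Nfkbie 1.24, Nfkbiz 0.81, Tnfaip2 0.65, Relb 0.52, Nfkb2 0.34, Nfkb1 0.24, Tnfaip3 0.20 and Nfkbia 0.08. Only the change of Nfkbiz was larger there than with all libraries. With all libraries, 5 members had an unadjusted p under 0.05 at 30M against 6M (11.6% of all genes), and 6 had all 30M libraries above all 6M libraries (9.89% of all genes). The 6 were Nfkb1, Nfkb2, Relb, Nfkbie, Nfkbiz and Tnfaip2. The members were chosen with earlier results of these data known, so these counts describe them and test nothing about the group.

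**Figure D1:**
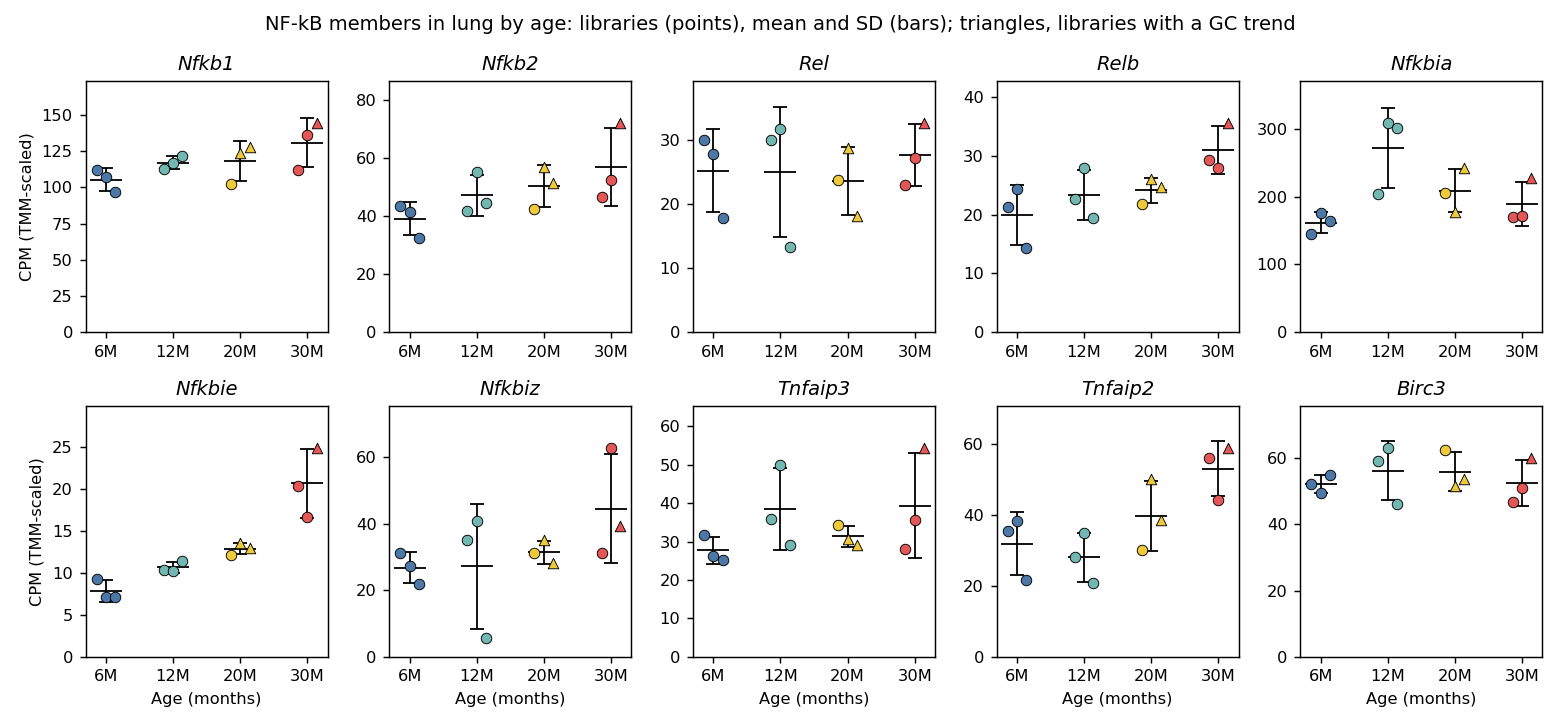
Level of each member (CPM, y axis) at the 4 ages (x axis); points are libraries, bars mean and SD of 3, and triangles mark 20M_221, 20M_222 and 30M_220. Nfkbie stands higher at each age than at the age before, while Nfkbia is highest at 12M and Birc3 stays between 46.3 and 63.3 CPM.

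Nfkbie (ENSMUSG00000023947; chr17:45555703-45563169, plus strand, GRCm38) encodes IkB epsilon, a cytoplasmic inhibitor that is itself induced by NF-kB and helps to end a response. Its level was 9.32, 7.09 and 7.10 CPM in the 6M libraries, 10.3, 10.2 and 11.4 at 12M, 12.1, 13.5 and 13.0 at 20M, and 20.4, 16.7 and 24.9 at 30M. Every library of an age lay above every library of the age before it. The means were 7.84 ± 1.28 CPM at 6M, 10.6 ± 0.656 at 12M, 12.9 ± 0.706 at 20M and 20.7 ± 4.12 at 30M.

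At 30M against 6M, Nfkbie rose by a log2 fold change of 1.40 (SE 0.19; 95% interval 0.99 to 1.80; adjusted p = 0.00285), which is 2.64-fold. At 30M against 12M it rose by 0.96 (SE 0.19; adjusted p = 0.0372), where 0.712% of all genes were called in either direction and 0.657% as higher. In that comparison 3 members had an unadjusted p under 0.05 (10.9% of all genes), and 3 (Relb, Nfkbie and Tnfaip2) had all 30M libraries above all 12M libraries (7.5% of all genes). At 30M against 20M the log2 fold change was 0.68 (adjusted p = 0.192), and at 20M against 6M it was 0.72 (adjusted p = 0.584). Neither passed, although the libraries of the ages did not overlap. The joint test over the 4 ages called Nfkbie (F = 20.8; adjusted p = 0.00988; rank 56 of 18407 genes), and it was the only member called there, against 1.11% of all genes. The slope on age was 0.0560 log2 units per month (SE 0.00694; adjusted p = 0.00151), or 1.34 over 24 months, again as the only member called, against 2.68% of all genes in either direction and 2.5% as higher. At an unadjusted p under 0.05 the joint test had 4 members (11.2% of all genes) and the slope 5 (13.3% of all genes).

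Without the 3 libraries with the GC trend, the Nfkbie change at 30M against 6M was 1.24 (adjusted p = 0.0129), and with a term for them it was 1.29 (adjusted p = 0.00264). It was called with any 1 of the 12 libraries left out (adjusted p up to 0.0266). At 30M against 12M the change was 0.81 without the 3 libraries and 0.80 to 1.09 with 1 library left out, close to the 0.96 from all libraries. The call was lost without the 3 libraries (adjusted p = 0.119) and without any 1 of 6M_202, 6M_203, 12M_206, 12M_207, 12M_208, 20M_221, 30M_216 and 30M_220 (adjusted p up to 0.166). The joint call was lost without the 3 libraries (adjusted p = 0.0703), where 20M keeps 1 library that is assumed to vary like the other ages.

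**Figure D2:**
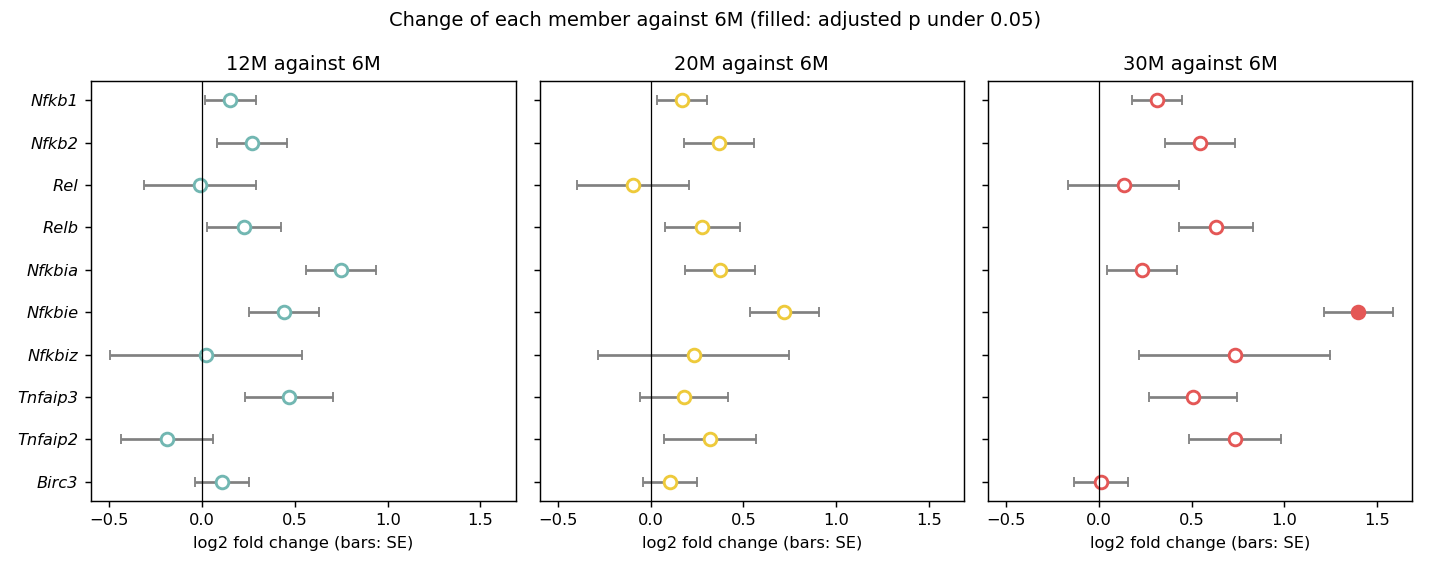
Log2 fold change (x axis; bars are SE) of each member (rows) at 12M, 20M and 30M against 6M. The filled point, Nfkbie at 30M with 1.40, is the one with an adjusted p under 0.05; Nfkbia has its widest distance from 0 at 12M, with 0.75.

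Nfkbia (ENSMUSG00000021025; chr12:55489410-55492647, minus strand) encodes IkB alpha, the fast-acting inhibitor of the family. It followed another course over age. Its level was 145, 175 and 164 CPM at 6M, 204, 309 and 302 at 12M, 205.9, 178 and 242 at 20M, and 170, 171 and 227 at 30M. The 12M libraries lay above all 6M libraries, and the 30M libraries overlapped the 6M ones.

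The Nfkbia log2 fold change was 0.75 at 12M against 6M (SE 0.19; unadjusted p = 0.00161; adjusted p = 0.988), 0.23 at 30M against 6M (adjusted p = 0.752; 0.08 without the 3 libraries with the GC trend, and 0.08 without 30M_220 alone) and -0.52 at 30M against 12M (adjusted p = 0.306). None passed in edgeR. The joint test gave an adjusted p of 0.239 in edgeR, 0.0365 in voom, which called 9.01% of all genes there, and 0.0445 in DESeq2, which called 4.28%, so whether Nfkbia is called over the 4 ages depends on the tool. At 12M against 6M edgeR, DESeq2 and voom each called 0 members, and edgeR called 0% of all genes. In that comparison 2 members, Nfkbia and Nfkbie, had an unadjusted p under 0.05 (3.6% of all genes), and 3, with Nfkb1, had libraries that did not overlap (6.3% of all genes).

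Set beside each other per kilobase of exon, Nfkbie stood at 3.40, 2.14 and 2.29% of Nfkbia in the 6M libraries, 2.68, 1.74 and 1.996% at 12M, 3.12, 4.02 and 2.84% at 20M, and 6.33, 5.17 and 5.80% at 30M. The 3 values at 30M lay above the other 9. This ratio was computed after the values of both genes were seen and was not tested.

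**Figure D3:**
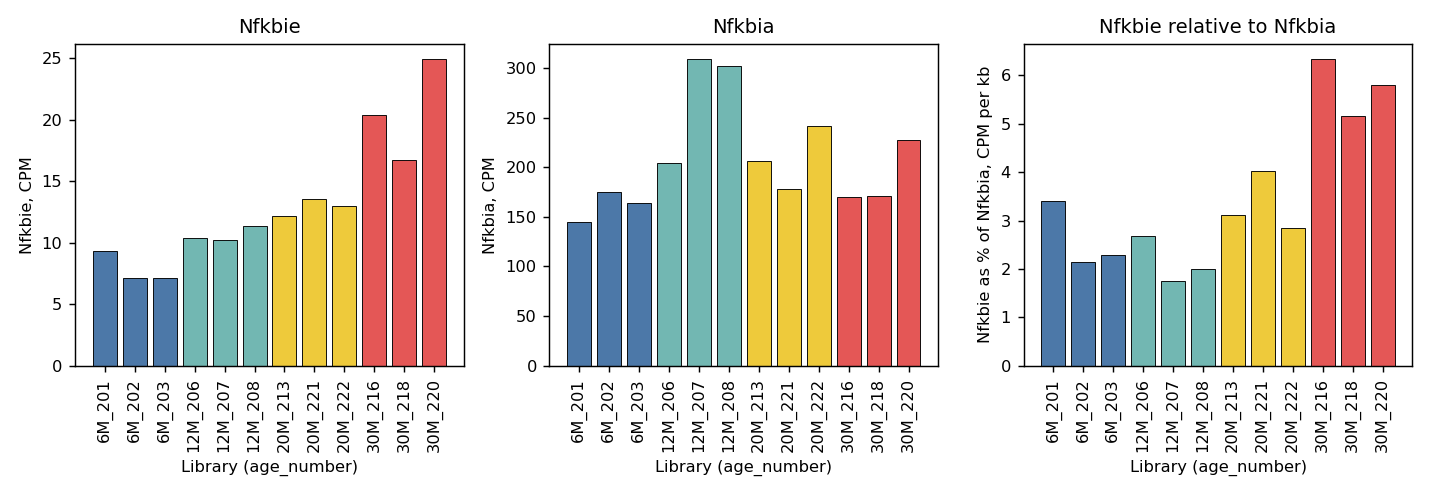
Nfkbie and Nfkbia in each of the 12 libraries (CPM) and Nfkbie as a percent of Nfkbia (CPM per kilobase of exon); bars are libraries, coloured by age. Nfkbie steps up with age to 16.7 to 24.9 CPM at 30M, Nfkbia peaks in 2 of the 3 12M libraries at 302 and 309 CPM, and the ratio is highest at 30M.

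Nfkbiz (ENSMUSG00000035356; chr16:55811375-55838899, minus strand) encodes IkB zeta, a nuclear member of the family that acts as a cofactor for secondary response genes. Its level was 31.2, 27.4 and 21.8 CPM at 6M, 35.1, 40.8 and 5.65 at 12M, 31.0, 35.0 and 28.1 at 20M, and 31.2, 62.9 and 39.4 at 30M. Library 12M_208 stood far below the rest, and the highest library, 30M_218, was 11.1 times as high. The 30M libraries lay above the 6M ones by as little as 31.16 against 31.15 CPM, and the log2 fold change of 0.73 (SE 0.52; adjusted p = 0.693) did not pass. It was 0.40 without 30M_218.

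Among the subunit genes none was called by edgeR at any pair of ages. Nfkb1 (ENSMUSG00000028163; chr3:135584655-135691547, minus strand) encodes a precursor whose processed form pairs with Rela in the common NF-kB dimer. Its level was 112, 107 and 96.6 CPM at 6M, 112, 117 and 122 at 12M, 102, 123 and 128 at 20M, and 112, 136 and 144 at 30M. At 30M it averaged 131 ± 16.9 CPM, against 105 ± 7.82 at 6M (log2 fold change 0.31; SE 0.14; adjusted p = 0.382). That change was 0.24 without the 3 libraries with the GC trend and 0.22 with a term for them. The lowest 30M library differed from the highest 6M library by under 0.1 CPM (111.9 and 111.8).

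Nfkb2 (ENSMUSG00000025225; chr19:46304320-46312385, plus strand) and Relb (ENSMUSG00000002983; chr7:19606217-19629438, minus strand) encode the partners of the noncanonical pathway, which lymphotoxin, CD40 and BAFF receptors use. Nfkb2 stood at 46.4, 52.3 and 72.04 CPM at 30M, against 43.3, 41.5 and 32.5 CPM at 6M (log2 fold change 0.54; SE 0.19; adjusted p = 0.224). Relb stood at 29.2, 28.0 and 35.6 CPM at 30M, against 21.2, 24.3 and 14.4 CPM at 6M (0.63; SE 0.20; adjusted p = 0.168). Both had the 30M libraries above the 6M ones, and both had means that were higher at each age than at the age before: 39.1, 47.1, 50.3 and 56.9 CPM for Nfkb2 and 20.0, 23.4, 24.1 and 31.0 CPM for Relb at 6M, 12M, 20M and 30M. The Relb slope had an adjusted p of 0.106 in edgeR and 0.0491 in DESeq2, which called 4.89% of all genes on the slope.

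Both genes are GC-rich, at the 92.3 and 95.4 percentiles of exon GC among tested genes. Next among the members were Nfkbie (79.3), Tnfaip2 (77.5) and Nfkbia (75.6). For all of these the highest 30M library was 30M_220, which carries the GC trend. Without the 3 libraries with that trend, the change at 30M against 6M was 0.34 for Nfkb2 and 0.52 for Relb, and without 30M_220 alone it was 0.34 for Nfkb2. The only 20M library without the trend, 20M_213, stood at 42.5 CPM for Nfkb2 and 21.7 CPM for Relb. Both values lay below the 12M means of 47.1 and 23.4 CPM, so the rise of the means from 12M to 20M rests on 20M_221 and 20M_222. The span of Nfkb2 overlaps 2 genes on the other strand, Psd and 4833438C02Rik, with 3112 counts in all libraries beside 7727 for Nfkb2. The sources used here do not give whether counting used the strand. Without strand, reads from bases that exons of Nfkb2 and these genes share cannot be told apart. Only whole gene spans were compared, and how far the exons overlap was not examined.

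Rel (ENSMUSG00000020275; chr11:23736847-23770970, minus strand) encodes c-Rel, a subunit made mainly in lymphoid and myeloid cells. Its level was 30.1, 27.9 and 17.8 CPM at 6M, 30.0, 31.7 and 13.3 at 12M, 23.8, 28.8 and 18.2 at 20M, and 23.0, 27.3 and 32.7 at 30M. The libraries of 30M and 6M overlapped (0.13 at 30M against 6M; SE 0.30; adjusted p = 0.939), and the sign of the change at 30M depended on single libraries.

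Tnfaip3 (ENSMUSG00000019850; chr10:19000910-19015657, minus strand) encodes A20, a ubiquitin-editing enzyme that dampens TNF and Toll-like receptor signalling. Its level was 31.7, 26.3 and 25.2 CPM at 6M, 36.0, 50.05 and 29.1 at 12M, 34.3, 30.6 and 29.0 at 20M, and 28.0, 35.6 and 54.5 at 30M. The change at 30M against 6M was 0.51 (SE 0.24; adjusted p = 0.442), with overlapping libraries, and it was 0.20 without the 3 libraries with the GC trend or without 30M_220 alone.

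Tnfaip2 (ENSMUSG00000021281; chr12:111442469-111455018, plus strand) is a TNF-induced gene whose product takes part in forming membrane nanotubes between cells. Its level was 35.6, 38.5 and 21.8 CPM at 6M, 28.3, 35.0 and 20.9 at 12M, 30.3, 50.1 and 38.8 at 20M, and 56.0, 44.4 and 59.1 at 30M. The 30M libraries lay above all 6M and all 12M libraries. The log2 fold change was 0.73 at 30M against 6M (SE 0.25; adjusted p = 0.205) and 0.92 at 30M against 12M (adjusted p = 0.128), neither of which passed in edgeR, while DESeq2 called 30M against 12M (adjusted p = 0.0248), where it called 2.74% of all genes. The change at 30M against 6M was 0.65 without the 3 libraries with the GC trend and 0.60 with a term for them. The slope had an adjusted p of 0.0752 in edgeR and 0.0291 in DESeq2, the only 1 of 8 other settings that called it. With 1 library left out, edgeR called the slope in 1 of 12 fits (adjusted p = 0.0463 without 6M_202, and up to 0.265 in the rest). An antisense gene, Gm40578, overlaps Tnfaip2 and had 330 counts in all libraries, beside 6139 for Tnfaip2.

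Birc3 (ENSMUSG00000032000; chr9:7848699-7873186, minus strand) encodes a ubiquitin ligase that acts at TNF receptors and restrains the noncanonical pathway. Its level was 52.2, 49.5 and 55.0 CPM at 6M, 59.2, 63.3 and 46.3 at 12M, 62.6, 51.5 and 53.9 at 20M, and 46.7, 50.9 and 60.2 at 30M. The log2 fold change at 30M against 6M was 0.01 (SE 0.15; adjusted p = 0.991), with overlapping libraries.

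In the other pairs of ages the members gave few calls. At 20M against 6M edgeR and DESeq2 called 0 members and voom called 1, Nfkbie (4.22% of all genes); 1 member had an unadjusted p under 0.05 in edgeR (7.8% of all genes), 2 had libraries that did not overlap (7.77% of all genes), and 0.0163% of all genes were called. At 30M against 20M edgeR and voom called 0 and DESeq2 called 1, Nfkbie (1.73% of all genes), with 1 unadjusted p under 0.05 in edgeR (8.89% of all genes), 2 members, Relb and Nfkbie, whose libraries did not overlap (5.69% of all genes) and 0.212% of all genes called. At 20M against 12M all 3 tools called 0 members and edgeR gave 0 with an unadjusted p under 0.05, against 11.2% of all genes, of which 0% were called; 1 member, Nfkbie, had libraries that did not overlap (7.59% of all genes). These comparisons share libraries and are not independent of each other.

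Over the 4 ages, 8 members had their highest mean at 30M and 2, Nfkbia and Birc3, at 12M, and 8 had their lowest mean at 6M. The means of 5 members (Nfkb1, Nfkb2, Relb, Nfkbie and Nfkbiz) were higher at each age than at the one before. Single libraries weighed on this order. Of the 20M libraries only 20M_213 lacks the GC trend. Its Nfkb1 (102 CPM), Nfkb2 (42.5 CPM) and Relb (21.7 CPM) lay below the 12M means (117, 47.1 and 23.4 CPM). Its Nfkbie (12.1 CPM) and Nfkbiz (31.0 CPM) lay above the 12M means (10.6 and 27.2 CPM). Without 12M_208 the 12M mean of Nfkbiz was 37.9 CPM, above its 20M mean of 31.4 CPM. Library 30M_220 was the highest of all 12 for 7 members and the highest of the 30M libraries for 9. Library 6M_203 was the lowest of the 6M libraries for 7 members, and 12M_208 was the lowest of the 12M libraries for 6. The part of the GC trend in these values was not tested beyond the fits without these libraries or with a term for them.

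**Figure D4:**
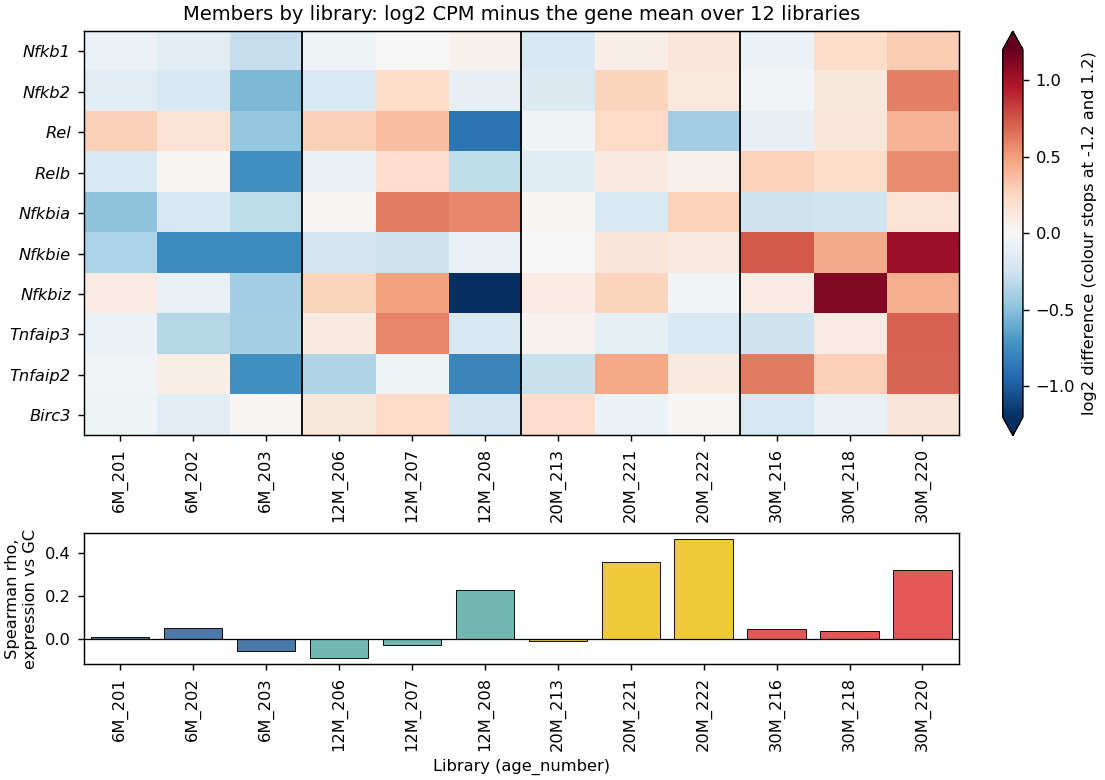
Upper panel, log2 CPM of each member (rows) in each library (columns) minus the member's mean over 12 libraries, with colours that stop at 1.2 in either direction; lower panel, Spearman rho between gene GC content and expression relative to the 6M mean. Library 30M_220 is high for most members and has a rho of 0.320, and 12M_208 is low for Nfkbiz and Rel.

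Over the 12 libraries the members mostly varied together: of 45 pairs, 39 had a Pearson correlation of log2 CPM above 0, and the values ran from -0.39 to 0.88 with a median of 0.45. Relb was closest to the mean of the other 9 (0.90), followed by Nfkb2 (0.84), and Nfkbia stood apart (-0.02). These correlations are descriptions over libraries that share age, depth and GC trend. Pairs of other genes were not computed, so whether such a share is particular to the members was not tested. Of 13339 genes with a mean of at least 5 CPM that are no members, the 5 closest to the members' mean were Jarid2 (r = 0.93), Map3k14 (0.92), Rap1gap2 (0.92), Gpr132 (0.91) and Rbm38 (0.91) over 12 libraries. Over the 9 libraries without the GC trend their r lay between 0.89 and 0.95. Map3k14 encodes NIK, the kinase of the noncanonical pathway.

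Between genes, levels were compared as CPM per kilobase of exon over all 12 libraries. The length is that of all annotated exons of a gene together, 12061 bases for Nfkb1 and 1610 for Nfkbia. The order therefore also depends on the annotation, since a transcript need not hold every exon. Nfkbia was highest by far, with 129 ± 33.1 CPM per kilobase (SD, n = 12). Birc3 (10.8 ± 1.17), Nfkb2 (10.5 ± 2.21), Nfkb1 (9.76 ± 1.146) and Tnfaip2 (7.67 ± 2.48) came next. Nfkbiz (6.47 ± 2.65), Relb (6.33 ± 1.39), Tnfaip3 (4.73 ± 1.27), Nfkbie (4.27 ± 1.75) and Rel (3.40 ± 0.829) followed. Neighbours in this order differed by more than the larger of their SDs in 2 places: Nfkbia above Birc3 and Relb above Tnfaip3, each in 12 of 12 libraries.

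The rest of the pathway was described from 5 further lists at 30M against 6M, where edgeR called 1.96% of all genes, DESeq2 4.09% and voom 3.23%, and 11.6% had an unadjusted p under 0.05 in edgeR. Of 16 tested ligand and receptor genes (17 listed), edgeR called 1, Tnfrsf1b, which encodes the TNF receptor found mainly on leukocytes and endothelium. It stood at 111, 108 and 121 CPM at 30M, against 44.0, 36.6 and 29.4 CPM at 6M, with no overlap (log2 fold change 1.63; SE 0.17; adjusted p = 0.000952), and it was called with any 1 library left out. At 12M it had 57.7, 55.2 and 58.6 CPM and at 20M 54.5, 67.0 and 44.8 CPM, so that, unlike Nfkbie, its 12M and 20M libraries overlapped. Tnf itself, the ligand, averaged 5.44 ± 2.07 CPM at 30M and 1.99 ± 0.294 CPM at 6M and was called by edgeR on the slope (adjusted p = 0.0395) but not at 30M against 6M (0.134). The slope call was lost with a term for the 3 libraries with the GC trend (0.0724), without them (0.139) and without any 1 of 6 libraries (6M_201, 6M_202, 6M_203, 12M_207, 30M_218 and 30M_220; up to 0.157). At 30M against 6M DESeq2 called 2 of the list (Tnfrsf1b and Tnf) and voom 2 (Tnfrsf1b and Tlr2). The list's median log2 fold change was 0.33, with 13 genes above 0 and 3 below.

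Of 21 tested target genes (22 listed), edgeR called 2 at 30M against 6M, both chemokines. Ccl4 stood at 6.52, 6.14 and 3.87 CPM at 30M, against 0.298, 0.824 and 0.807 CPM at 6M (log2 fold change 3.09; SE 0.51; adjusted p = 0.00850; 0.0503 without 6M_203). Its 6M mean of 0.643 CPM is near the floor, so the size of this change is imprecise. Cxcl10, an interferon-induced chemokine, stood at 8.21, 13.3 and 3.36 CPM at 30M, against 2.09, 1.81 and 0.888 CPM at 6M (2.36; SE 0.53; adjusted p = 0.0383); its call was lost without any 1 of 6M_201, 6M_202, 6M_203, 12M_207, 30M_216 and 30M_218 (up to 0.214). The slope called 5 of the 21 in edgeR, against 2.68% of all genes, adding the chemokine Ccl3 (adjusted p = 0.0343), the survival gene Bcl2a1d (0.0270) and the acute-phase gene Saa3 (0.0234). The Ccl3 slope call was lost without any 1 of 6M_201, 6M_203, 12M_206, 30M_216, 30M_218 and 30M_220 (up to 0.104). That of Bcl2a1d was lost without any 1 of 6M_202, 6M_203, 30M_216 and 30M_218 (up to 0.139), and this gene has near-identical copies between which reads may be split. That of Saa3 was lost without any 1 of 6M_201, 6M_202, 6M_203, 12M_206 and 30M_218 (up to 0.0703). Saa3 had 16.9, 294 and 37.4 CPM at 30M, against 2.46, 2.72 and 2.42 CPM at 6M. At 30M against 6M DESeq2 called these 5 targets and voom 4 of them, all but Saa3. The list's median was 0.59, with 15 genes above 0 and 6 below.

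At 30M against 6M none of the 11 kinases and other IkB genes was called by edgeR, DESeq2 or voom, with 1 unadjusted p under 0.05 in edgeR and a median of 0.17. The closest were Nfkbid, an atypical IkB gene (10.7 ± 4.25 CPM at 30M and 5.75 ± 2.83 CPM at 6M; adjusted p = 0.420), and Map3k14 (23.9 ± 4.08 CPM at 30M and 18.6 ± 2.13 CPM at 6M; adjusted p = 0.449). None of the 18 adaptors and ubiquitin enzymes was called by any of the 3 tools, with 2 unadjusted p under 0.05 in edgeR and a median of 0.12. Over all genes 11.6% had such a p, and both lists are near that share. The closest were Tnip1, which encodes an A20-binding protein (46.2 ± 14.9 CPM at 30M and 28.6 ± 2.03 CPM at 6M; adjusted p = 0.177), and Myd88, the adaptor of Toll-like and interleukin-1 receptors (61.9 ± 9.71 CPM at 30M and 47.7 ± 4.11 CPM at 6M; adjusted p = 0.321).

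Immediate early genes, which respond within minutes to many stimuli and to tissue handling, stood the other way. At 30M against 6M none of 13 was called by the 3 tools, 4 had an unadjusted p under 0.05 in edgeR (11.6% of all genes), 2 lay above 0 and 11 below, and the median was -0.50. Egr1 averaged 25.0 ± 4.29 CPM at 30M and 74.5 ± 59.9 CPM at 6M (adjusted p = 0.235), with 139 CPM in 6M_201 and 20.9 CPM in 6M_203. Btg2 averaged 157 ± 7.31 CPM at 30M and 227 ± 66.7 CPM at 6M (adjusted p = 0.267). On the slope edgeR and voom called 0 of the 13, with 5 at an unadjusted p under 0.05 in edgeR (13.3% of all genes). There DESeq2 called 3, Fos, Egr1 and Btg2 (4.89% of all genes). In the joint test voom called Klf4 (9.01% of all genes). At 30M against 12M, 13 of 13 lay below 0, with a median of -0.55, against 0.0016 over all genes. In that comparison 4 had an unadjusted p under 0.05 in edgeR (10.9% of all genes), edgeR and voom called 0, and DESeq2 called Btg2 (2.74% of all genes). The summed list ran from 1197 to 1408 CPM at 30M and from 1034 to 2195 CPM at 6M.

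**Figure D5:**
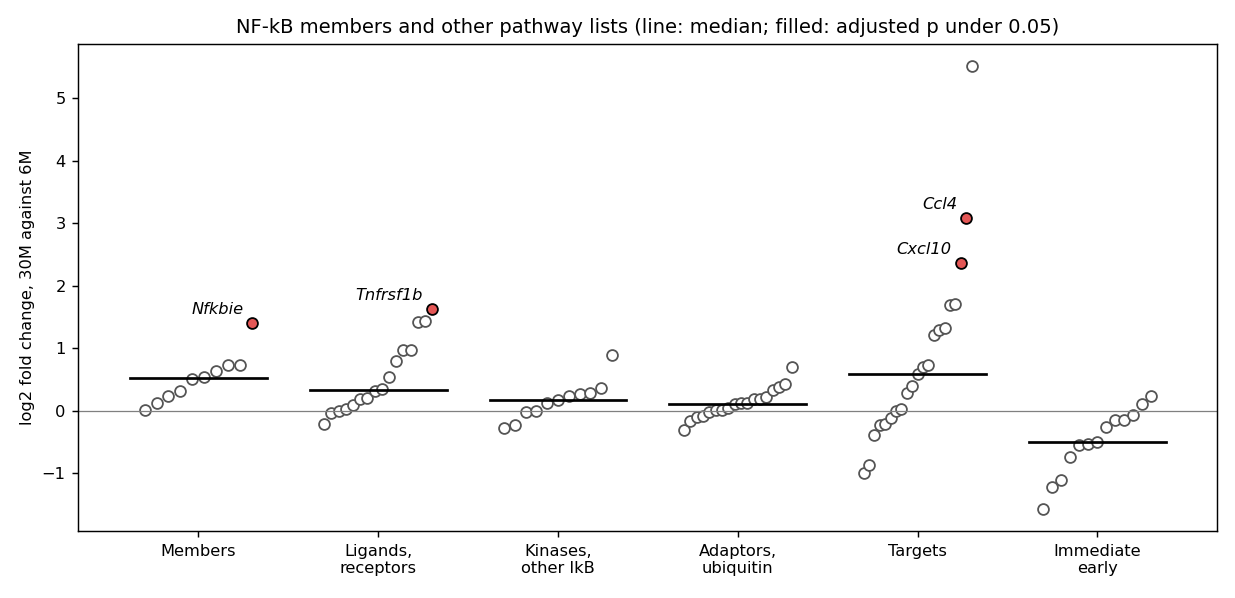
Log2 fold change at 30M against 6M (y axis) of each tested gene of the members and of the 5 further lists (x axis); lines are medians and filled points have an adjusted p under 0.05. Nfkbie (1.40), Tnfrsf1b (1.63), Ccl4 (3.09) and Cxcl10 (2.36) are the filled points, and the immediate early genes have a median of -0.50.

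Some leukocyte markers were also higher at 30M. The 7 macrophage markers (C1qa, C1qb, C1qc, Adgre1, Mrc1, Marco and Siglecf) summed to 360 to 481 CPM at 30M and to 151 to 177 CPM at 6M. Of the 7, 4 were called higher, the complement genes C1qa, C1qb and C1qc and the surface receptor gene Adgre1, with log2 fold changes of 1.65 to 2.05. The others were not called. Marco stood at 1.48 (adjusted p = 0.0535), with all 30M libraries above all 6M libraries, and Mrc1 at 0.19 (adjusted p = 0.817). Siglecf, a marker of alveolar macrophages, stood at -0.69 (adjusted p = 0.584). The 7 T cell markers summed to 68.7 to 103 CPM at 30M and to 34.5 to 50.2 CPM at 6M, with 3 of 7 called higher, Cd3e (1.42), Cd3g (1.26) and Lat (1.14). The 7 dendritic cell markers ran from 122 to 209 CPM at 30M and from 98.7 to 149 CPM at 6M, with overlap. Of these, 2 were called higher, Flt3 (1.24) and Xcr1 (2.20), and Ccr7 stood at -0.82 (adjusted p = 0.540). B cell markers (94.1 to 368 CPM at 30M and 163 to 329 CPM at 6M), neutrophil markers (284 to 1292 CPM at 30M and 156 to 1006 CPM at 6M), alveolar epithelium markers (18757 to 32645 CPM at 30M and 31472 to 36576 CPM at 6M) and endothelial markers (2002 to 2852 CPM at 30M and 1773 to 2100 CPM at 6M) gave 0 calls in edgeR. Below 0 were 6 of 7 B cell and 7 of 7 alveolar epithelium markers, 4 of the latter at an unadjusted p under 0.05. Above 0 were 7 of 7 T cell, 6 of 7 macrophage, 6 of 7 dendritic cell, 6 of 6 neutrophil and 5 of 6 endothelial markers. Of all genes, 1.93% were called as higher and 0.0272% as lower, 11.6% had an unadjusted p under 0.05, and 50.5% lay above 0. No marker of these 7 lists was at 0 in any library of 6M or 30M. In whole lung RNA, more cells of a type and more RNA per cell cannot be told apart, and the part of these markers in the Nfkbie, Tnfrsf1b and chemokine changes was not tested.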

How the data were processed

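RNA was isolated with ISOGEN II, selected for poly-A and read as pairs on an Illumina platform, per the labels. The deposited table holds whole-number read counts per gene with no normalization by the authors. Per the submitters' processing notes, FastQC 0.11.7, Trimmomatic 0.38, HISAT2 2.1.0 and featureCounts were used with GRCm38 (mm10). For the annotation release and strand setting, the sources used here give nothing. From these counts, CPM used TMM scaling (edgeR 4.0.16, R 4.3.3). All 12 libraries entered 1 robust quasi-likelihood fit after filterByExpr by age, with age as a factor, or as months for the slope. DESeq2 1.42.0, voom with quality weights (limma 3.58.1), other filters and scalings, left-out libraries and a term for the GC libraries were alternatives. Exon GC and length came from GENCODE M21. The members and lists were chosen with earlier results of these data known. All members are named; of each pathway list, genes called in edgeR at 30M against 6M, jointly or on the slope are named, or else the 2 with the smallest p; other genes were named after their values were seen. The fits were tested on simulated counts.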

Additional observations from a re-analysis of the deposited data

How the results depend on the processing

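The number of members called at 30M against 6M was 1 under all 20 alternatives, Nfkbie each time. The other counts were each 1 in the fit reported, and moved as follows. The joint test called 0 members without the 3 libraries with the GC trend, 2 with voom (9.01% of all genes) and 2 with DESeq2 (4.28%). The slope called 3 with DESeq2 (4.89%), and 1 to 2 with 1 library left out. The other pairs of ages together gave 0 calls without the 3 libraries, 2 with voom and 3 with DESeq2, and 0 to 1 with 1 library left out. The count of members whose 30M libraries all lay above the 6M ones, 6 as reported, was 6 to 7 with a library left out and 6 without the 3 libraries; these alternatives were chosen after seeing the data. Of 200 alternative values of the members' log2 fold changes at 30M against 6M, 192 kept their sign and side of the threshold and 8, of Birc3 and Rel, changed sign. For Birc3 they were -0.00020 with a term for the 3 libraries, -0.097 without them and -0.042 with voom, and ran from -0.098 to 0.083 with 1 library left out (below 0 without 6M_202 or 30M_220). For Rel they were -0.0068 without the 3 libraries, and ran from -0.067 to 0.28 with 1 library left out (below 0 without 6M_203 or 30M_220). The cause was not tested. No paired analysis was possible because the ages share no replicate number. Depth limits Nfkbie most in 6M_202, where it had 86 counts.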
